A study of Mus musculus with 9 samples.

Results

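The family of miR-15, miR-16, miR-195 and miR-497 is a group of microRNAs (miRNAs) that share the same seed, the short stretch near the 5′ end through which a miRNA pairs with its target messages. The members were the rows of the count tables named mmu-miR-497a-5p, mmu-miR-195a-5p, mmu-miR-195a-3p, mmu-miR-16-5p, mmu-miR-16-1-3p, mmu-miR-15a-5p, mmu-miR-15b-5p and mmu-miR-15b-3p, written below without the mouse prefix, and they made 8 of the 1915 mature miRNAs counted. A filter kept 304 miRNAs that exceeded 32 counts in 1 library or more, and it kept 7 of the 8 members, all but miR-16-1-3p. The family was chosen by the control against tumor values of the same libraries, in which miR-497a-5p had been seen to be lower in every tumor-bearing mouse. The control against tumor values of the members are therefore a description and carry no test.

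Small RNA was sequenced from the tibialis anterior (TA), a hindlimb muscle, of 4 control mice and of 5 mice with tumors of Lewis lung carcinoma (LLC) cells, 1 mouse per library. The sample labels name C57BL/6J mice of 10 weeks, whereas the series description names C57BL/10 males of 8 weeks, and neither lists a transgene or deletion. This line was derived from a lung carcinoma of the mouse, and 750000 cells in 100 µl of phosphate-buffered saline (PBS) went under the skin of each flank. Controls received the same volume of PBS, and the muscles were taken at 22 days, when the LLC mice had lost body weight. Mice are named here C1 to C4 (control) and L1, L2, L3, L5 and L6 (LLC). An LLC library that the authors removed at their quality filters was not analysed here.

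A miRNA hairpin yields a 5p and a 3p arm, of which 1 (the guide) is usually kept in the silencing complex and the other (the passenger) is mostly degraded. The guides of this family repress Bcl2, an inhibitor of cell death, and many genes of the cell cycle, among them D-type cyclins. Loss of the miR-15a/16-1 locus is frequent in chronic lymphocytic leukemia, and miR-195 and miR-497 are known for holding muscle stem cells in quiescence and for the exit of muscle and heart cells from the cell cycle after birth.

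The sequences of the guides are shown because the members differ outside the seed, and because the reads were assigned to members by sequence alone. They are mature sequences from RefSeq (GRCm38.p6), 5′ to 3′, with the seed (bases 2 to 8) in capitals, and miR-322-5p is a relative outside the 8 members that carries the same seed.
miR-497a-5p: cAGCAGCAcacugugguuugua
miR-195a-5p: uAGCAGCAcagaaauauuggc
miR-16-5p: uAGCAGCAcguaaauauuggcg
miR-15a-5p: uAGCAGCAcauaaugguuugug
miR-15b-5p: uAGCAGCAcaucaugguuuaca
miR-322-5p: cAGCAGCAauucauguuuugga
The 5 guides had an identical seed, and 10 of the 1623 table miRNAs that matched a RefSeq sequence had it. miR-16-5p and miR-195a-5p were the closest pair, with 2 differences in the 21 bases compared, both at bases 10 and 11. miR-15a-5p and miR-15b-5p differed at 4 of 22 bases, miR-497a-5p and miR-15a-5p at 5 of 22, and miR-497a-5p and its neighbor miR-195a-5p at 9 of 21. The passenger arms carried other seeds, which were CAAUAUU in miR-195a-3p, GAAUCAU in miR-15b-3p and CAGUAUU in miR-16-1-3p.

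The members come from 3 loci of 2 hairpins each (GRCm38). The hairpin of miR-497a-5p lies on chromosome 11 from 70234717 to 70234800, on the plus strand, where the Mir497b hairpin overlaps it on the minus strand. That of both miR-195a arms follows 241 bp on, from 70235042 to 70235135, and neither overlaps an annotated coding gene. The nearest coding gene, 0610010K14Rik, is on the other strand. On chromosome 14, minus strand, Mir16-1 (61631880 to 61631972) lies in an exon of the non-coding gene Dleu2, and Mir15a (61632027 to 61632110) in an intron of it. On chromosome 3, plus strand, Mir15b (69009772 to 69009835) and Mir16-2 (69009902 to 69009996) lie in introns of Smc4, which encodes a subunit of condensin. Mir16-1 and Mir16-2 give the same miR-16-5p, so its counts could not be divided between these 2 loci.

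Total counts per library were 4992339 to 6548379 in the control group and 6216566 to 7833161 in the LLC group. Levels are given as counts per 1000000 counts of the library (CPM) after edgeR's TMM scaling, whose factors ran from 0.953 to 1.15 in control and from 0.762 (L5) to 1.11 in LLC libraries, with L1 at 0.876. A floor of 3 counts corresponded to 0.344 to 0.593 CPM, which covers counting error only. The muscle miRNA miR-133a-3p was at 17650 to 25203 CPM in control and 17440 to 21047 CPM in LLC libraries, and the liver miRNA miR-122-5p had at most 0.132 CPM. In bulk muscle, fewer cells of a type and less of the miRNA per cell cannot be told apart.

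miR-16-5p dominated the family, with 84.2 to 88.2% of the 8 members' counts in each library and rank 17 of all miRNAs by mean CPM. The family as a whole held 0.402 to 0.840% of all counts. Next by mean CPM over the 9 libraries came miR-195a-5p (379, rank 70), miR-497a-5p (252, rank 79), miR-15a-5p (209.5, rank 83) and miR-15b-5p (29.8, rank 157). The passenger arms were the lowest, with 7.87 CPM for miR-195a-3p, 4.22 for miR-15b-3p and 1.70 for miR-16-1-3p. All mature sequences are of nearly equal length, and how efficiently each was captured was not measured.

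The order was read from these 9 libraries, and the steps between neighbors in it were then examined as count ratios within a library. The step from miR-16-5p to miR-195a-5p was the widest, with a log2 ratio of 3.94 ± 0.32 (SD, n = 9). It and the 4 steps from miR-15a-5p downward were positive in 9 of 9 libraries. Each had an adjusted p of 0.00547 in a two-sided exact sign-flip permutation test. Before Benjamini-Hochberg adjustment over the 7 steps it was 0.00391, the smallest that 9 libraries allow. Because the same libraries set the order, these p describe how steady a step was and are no separate check of the order. Some margins among the passenger arms were within counting error. In L5, miR-195a-3p had 35 counts and miR-15b-3p 34. In L3, miR-15b-3p had 26 and miR-16-1-3p 21. The steps to either side of miR-497a-5p are given without a test, because the LLC values of this miRNA chose the family. That from miR-195a-5p to miR-497a-5p was a log2 ratio of 0.33 ± 0.24 in control (SD, n = 4), where C1 was nearly even, and 0.80 ± 0.24 in LLC libraries (SD, n = 5). That from miR-497a-5p to miR-15a-5p was 0.36 ± 0.21 in control (SD, n = 4) and 0.20 ± 0.22 in LLC libraries (SD, n = 5), with L3 reversed.

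miR-497a-5p was lower in the TA muscle of every LLC mouse than in that of every control mouse, and its mean was 0.745 times the control mean in the fit. Its level was 289, 287, 292 and 309.8 CPM in C1 to C4. It was 207, 223, 239.5, 216 and 211 CPM in L1, L2, L3, L5 and L6. The groups did not overlap, and the highest LLC library, L3, was below the lowest control library, C2. The means were 294 ± 10.6 CPM (SD, n = 4) and 219 ± 12.9 CPM (SD, n = 5), a log2-fold change of -0.43 with a standard error (SE) of 0.10, and the libraries held 1092 to 2165 counts each. The coefficient of variation was 3.60% in control and 5.89% in LLC libraries. Choosing a miRNA that was lower in every LLC library favors a small spread within groups.

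miR-195a-5p, which comes from the neighboring hairpin, had overlapping groups. It was at 286, 387, 424 and 397 CPM in C1 to C4. It was at 419.9, 411, 379, 421 and 287 CPM in L1, L2, L3, L5 and L6. One library in each group, C1 and L6, was low, and the other 7 lay between 379 and 424 CPM. The means were 373 ± 60.4 CPM (SD, n = 4) and 383 ± 56.5 CPM (SD, n = 5), a log2-fold change of 0.04 (SE 0.14). The sign of this value turned with library totals alone (-0.12), without C1 (-0.07) and without L1 and L5 (-0.03). Its passenger arm, miR-195a-3p, had 33 to 70 counts per library and means of 8.35 ± 1.34 CPM in control and 7.49 ± 1.02 CPM in LLC (SD, n = 4 and 5), a log2-fold change of -0.17 (SE 0.19) with overlapping groups.

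miR-16-5p, the product of both miR-15/16 loci, was even among the controls and scattered among the LLC mice. It was at 6032, 6287, 6242 and 5965 CPM in C1 to C4. It was at 4921, 6248, 6632, 4443 and 5490.2 CPM in L1, L2, L3, L5 and L6. L1, L5 and L6 were below every control, L2 was within the control range and L3 was above it. The means were 6131 ± 157 CPM (SD, n = 4) and 5547 ± 906 CPM (SD, n = 5), with a coefficient of variation of 2.56% against 16.3%, and the log2-fold change was -0.14 (SE 0.13). Without L1 and L5, the LLC libraries with the lowest TMM factors, it was 0.03.

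miR-15a-5p followed a like order of libraries. Its level was 232, 270.2, 211 and 207 CPM in C1 to C4. It was 155, 208, 246, 157 and 200.5 CPM in L1, L2, L3, L5 and L6. L1 and L5 were again the lowest libraries and L3 the highest LLC library. The means were 229.8 ± 29.1 CPM (SD, n = 4) and 193 ± 38.3 CPM (SD, n = 5), a log2-fold change of -0.25 (SE 0.15) that came to -0.04 without L1 and L5.

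The arms of miR-15b were low and their groups overlapped. miR-15b-5p ran from 28.3 to 36.3 CPM in control and from 26.6 to 30.9 CPM in LLC libraries (135 to 274 counts), a log2-fold change of -0.10 (SE 0.13) that came to 0.00015 without C2. miR-15b-3p had 17 to 37 counts, with 3.36 to 4.43 CPM in control and 3.45 to 6.71 CPM in LLC libraries. L5 held its highest value, and the log2-fold change of miR-15b-3p, 0.12 (SE 0.25), turned to -0.06 without L5. The sign also turned with the replicate block (-0.18), with library totals alone (-0.05) and without L1 and L5 (-0.05). miR-16-1-3p had 6 to 21 counts and overlapping groups of 1.19 to 2.03 and 1.26 to 2.79 CPM, and it was too low for the fit.

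**Figure D1:**
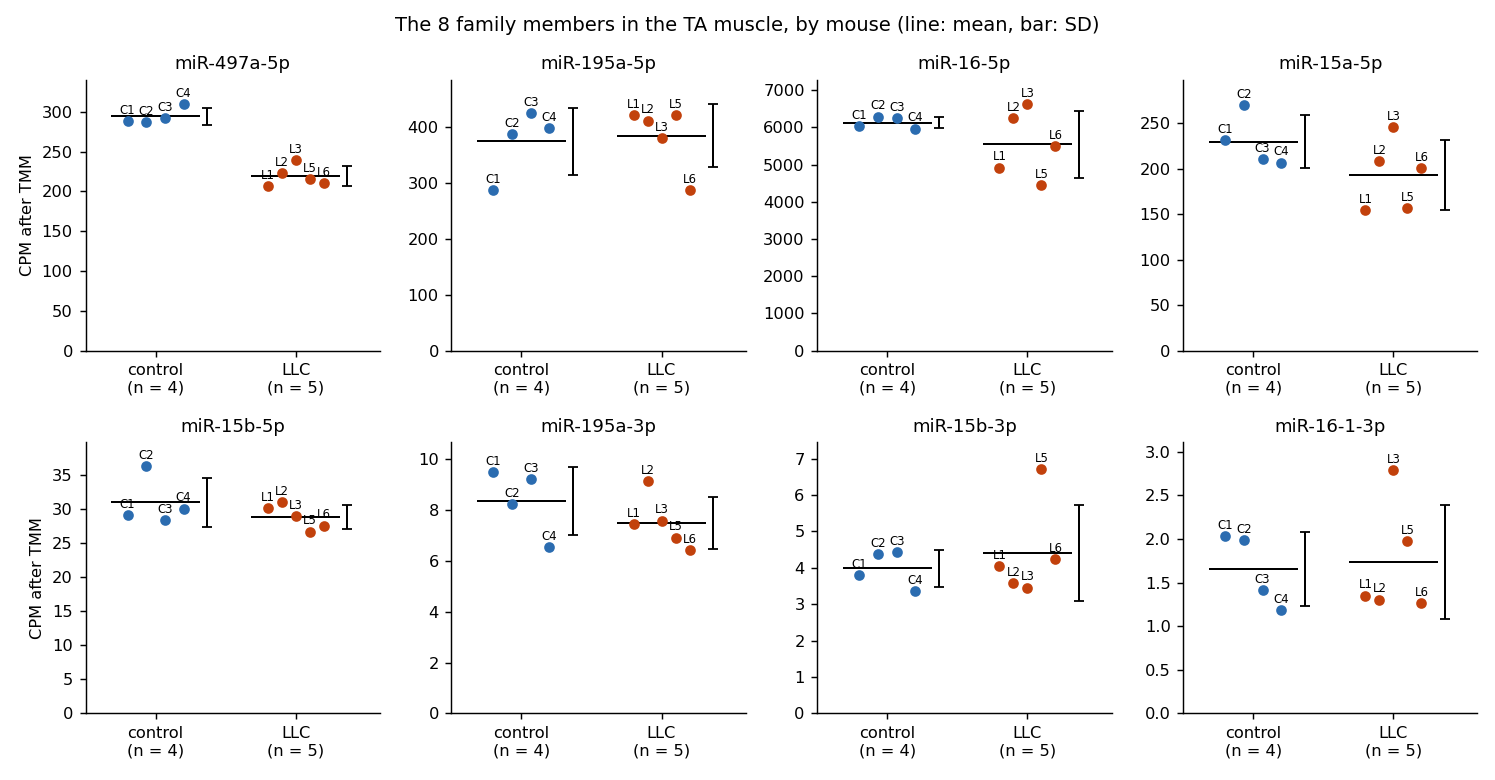
CPM after TMM scaling (vertical axis, linear, starting at 0) of the 8 family members in the TA muscle of control mice (blue, n = 4) and LLC mice (orange, n = 5). Each labelled point is 1 mouse, the line is the group mean and the bar its SD. miR-497a-5p is the panel in which the groups do not overlap, with 287 to 309.8 CPM in control and 207 to 239.5 CPM in LLC libraries.

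The members were set beside all tested miRNAs. No miRNA of the 304 was called by edgeR's quasi-likelihood test with both an adjusted p (Benjamini-Hochberg) no higher than 0.05 and a change of 1.5-fold or more, which is 0% of those tested and 0 of the 7 members tested. Without adjustment, 50 of 304 (16.4%) had a p under 0.05, 34 of them lower in LLC (11.2%). DESeq2 called 8 of 304 (2.63%) and edgeR without the filter on low counts 22 of 932 (2.36%), with 0 members in either. Of all tested miRNAs, 13 (4.28%) were lower in every LLC library than in every control library, and 5 (1.64%) were higher in every one, together 5.92%. Among the members, 1 was lower in this way, miR-497a-5p, for which the family was chosen, and 0 were higher. Of the 7 tested members, 5 had a negative and 2 a positive log2-fold change, beside 163 negative (53.6%) and 141 positive among all tested. The median was -0.14 over the members and -0.02 over all tested, and with library totals alone these were -0.27 and -0.17.

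**Figure D2:**
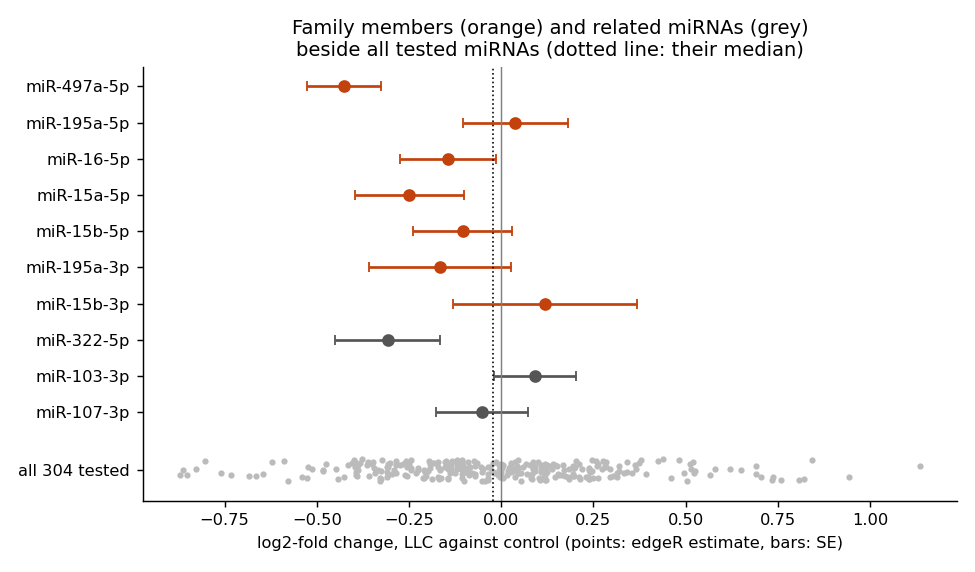
Log2-fold change of LLC against control from the edgeR fit (horizontal axis), with SE bars, for the 7 tested members (orange) and 3 related miRNAs (grey), above the values of all 304 tested miRNAs, whose vertical scatter is only for display. miR-497a-5p lies farthest to the left of the members, at -0.43, and miR-195a-5p sits at 0.04, while the dotted line marks the median of all tested, -0.02.

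The comparison of the loci rested on summed counts of their arms. The 3 arms of the chromosome 11 locus (miR-497a and miR-195a) summed to 676 ± 63.9 CPM in control (SD, n = 4) and 610.0 ± 59.6 CPM in LLC libraries (SD, n = 5), a log2 difference of -0.15 (SE 0.098). The groups overlapped, since C1 had 584 CPM and 4 LLC libraries lay between 626 and 643 CPM, with L6 at 504 CPM. The 5 arms of the miR-15/16 loci summed to 6398 ± 178 CPM in control and 5775 ± 942 CPM in LLC libraries (SD, n = 4 and 5), a log2 difference of -0.16 (SE 0.11) that came to 0.02 without L1 and L5. The miR-15a and miR-15b arms alone, which leave out miR-16, summed to 265 ± 32.6 and 227 ± 37.9 CPM (SD, n = 4 and 5), a log2 difference of -0.23 (SE 0.14). The log2 ratio of the chromosome 11 locus to the miR-15/16 loci was -3.25 ± 0.14 in control and -3.23 ± 0.29 in LLC libraries (SD, n = 4 and 5), a difference of 0.01 (SE 0.15). These differences moved with single libraries. Without L6 the log2 difference was -0.06 for the chromosome 11 locus and -0.14 for the miR-15/16 loci, without L5 it was -0.17 and -0.09, and without L1 and L5 it was -0.16 and 0.02. Over all 9 libraries the groups overlapped in both sums.

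Ratios within a library do not depend on library scaling. For every 100 counts of miR-195a-5p there were 100.9, 74.2, 68.8 and 78.1 counts of miR-497a-5p in C1 to C4. There were 49.3, 54.3, 63.2, 51.2 and 73.4 in L1, L2, L3, L5 and L6. The ratio was below every control in 4 of 5 LLC libraries, and L6 was within the control range. The means were 80.5 ± 14.2% (SD, n = 4) and 58.3 ± 9.98% (SD, n = 5), a difference of -0.47 in the log2 ratio (SE 0.16). Leaving out 1 library at a time, this difference ran from -0.55 to -0.35.

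miR-497a-5p also had a lower ratio to miR-16-5p in 4 of 5 LLC libraries than in every control. It was 4.78, 4.56, 4.67 and 5.19% in C1 to C4. It was 4.20, 3.57, 3.61, 4.85 and 3.84% in L1, L2, L3, L5 and L6. The exception was L5, the library with the lowest miR-16-5p, and the difference in the log2 ratio was -0.27 (SE 0.092). The ratio of miR-195a-5p to miR-16-5p was 6.08 ± 0.94% in control and 7.10 ± 1.83% in LLC libraries (SD, n = 4 and 5). L1 (8.53%) and L5 (9.47%) were above every control, and without those 2 libraries the difference in the log2 ratio went from 0.20 (SE 0.20) to -0.05. The neighbor ratio of miR-15a-5p to miR-16-5p was 3.74 ± 0.42% and 3.47 ± 0.24% (SD, n = 4 and 5), with overlapping groups.

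**Figure D3:**
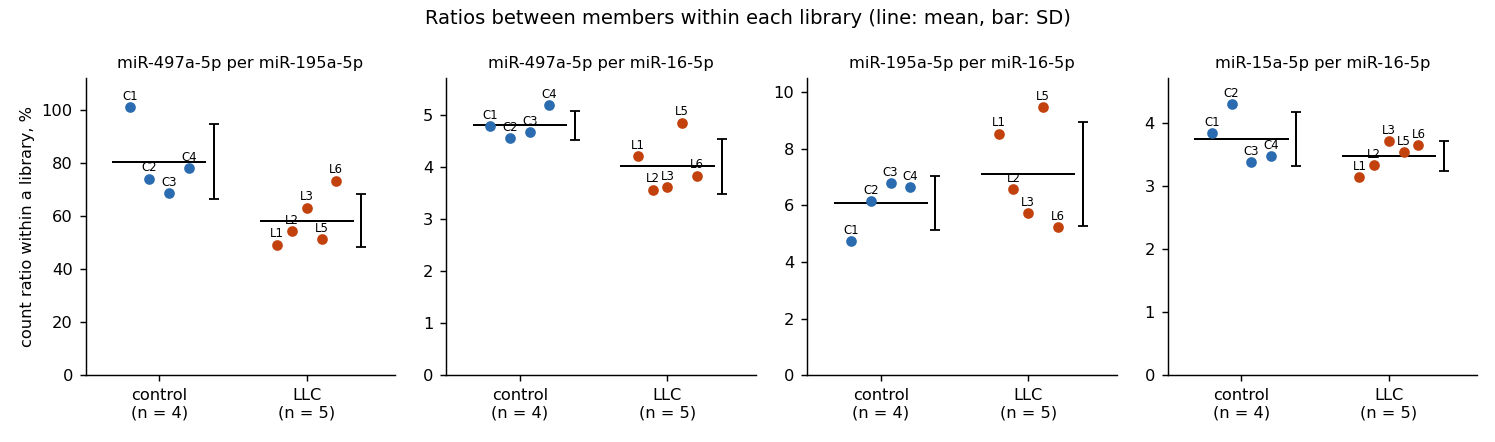
Count ratios between members within a library, in percent (vertical axes, starting at 0), for control (blue, n = 4) and LLC mice (orange, n = 5), with each mouse labelled, the group mean as a line and the SD as a bar. miR-497a-5p per miR-195a-5p is below all controls in every LLC library but L6 (73.4%), and miR-195a-5p per miR-16-5p is highest in L1 and L5.

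Reads could in principle be shared between miR-16-5p and miR-195a-5p, because the authors' mapping forbade mismatches in the first 8 bases only and these sequences first differ at base 10. A read was given to each of its best matches, and how many reads crossed was not tested. miR-195a-5p had at least 4.74% of the miR-16-5p count in every library. The passenger arms, whose seeds differ from that of the guides, had 1.64 to 3.32 counts of miR-195a-3p per 100 counts of miR-195a-5p and 11.2 to 25.2 counts of miR-15b-3p per 100 of miR-15b-5p.

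How closely the guides kept a fixed ratio across the 9 mice was measured by the SD over the libraries of the log2 ratio of a pair, with no test, and all pairs share the same libraries. For miR-16-5p and miR-15a-5p it was 0.132, and miR-15a-5p ranked 6 among the 303 other tested miRNAs by likeness to miR-16-5p. For miR-16-5p and miR-15b-5p it was 0.174 (rank 32), of which counting error alone gives about 0.106. Since miR-16-5p is the summed product of both miR-15/16 loci, neither value is a ratio within 1 locus. For miR-15a-5p and miR-322-5p, which are from different chromosomes, the SD was smaller, at 0.0966. For the chromosome 11 neighbors miR-497a-5p and miR-195a-5p it was 0.332, a value that holds the group difference for which the family was chosen. With the group means removed it was 0.239, and miR-195a-5p ranked 131 of 303 by likeness to miR-497a-5p, whose median SD against all others was then 0.260. In the other direction, miR-497a-5p ranked 41 of 303 by likeness to miR-195a-5p, whose median SD was 0.368. On the same within-group measure, miR-16-5p ranked 32 of 303 by likeness to miR-497a-5p, with an SD of 0.149. By likeness to miR-16-5p, miR-497a-5p ranked 17 of 303.

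**Figure D4:**
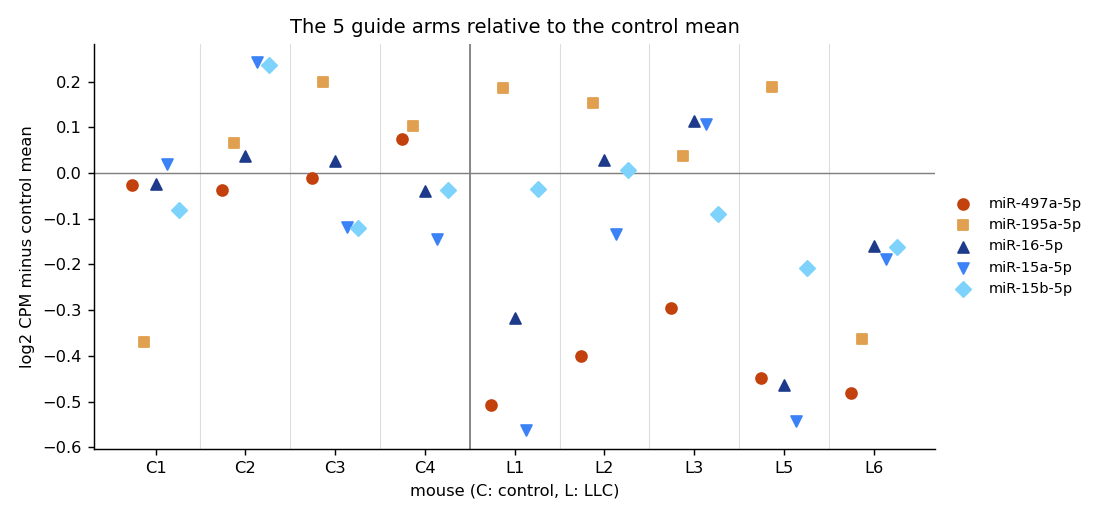
Log2 CPM of the 5 guides in each mouse (horizontal axis) minus the mean of the 4 control mice (0 on the vertical axis), 1 symbol per guide. miR-497a-5p (orange circles) is below 0 in all 5 LLC mice, miR-16-5p and miR-15a-5p (blue triangles) are low together in L1 and L5, and miR-195a-5p (light squares) is low in C1 and L6.

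**Figure D5:**
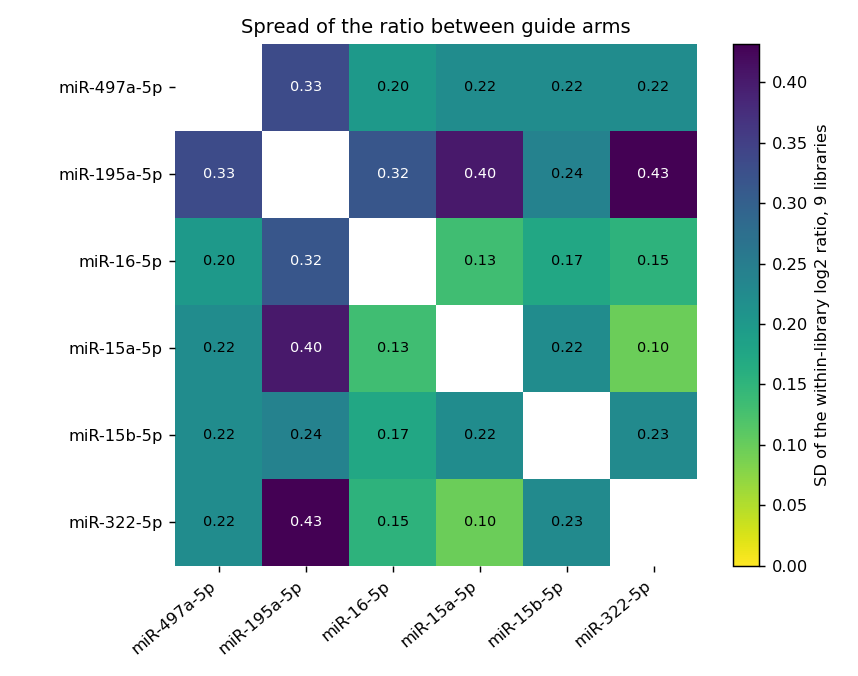
SD over the 9 libraries of the log2 count ratio of each pair among the 5 guides and miR-322-5p. Darker cells mean a ratio that varied more, as for miR-195a-5p with miR-322-5p (0.43) or miR-497a-5p (0.33), and the smallest SD is that of miR-15a-5p with miR-322-5p (0.10).

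For 3 guides, the miRNAs outside the family with the most similar course across the 9 libraries were read off the same measure. For miR-497a-5p these were miR-376b-5p (SD 0.110), miR-150-5p (0.125) and miR-127-3p (0.137). Since these libraries include both groups, the measure favors miRNAs that were lower in LLC by about as much as miR-497a-5p. The log2-fold changes were -0.39 (SE 0.14) for miR-376b-5p, -0.38 (SE 0.10) for miR-150-5p and -0.36 (SE 0.13) for miR-127-3p. miR-150-5p, known from lymphocytes, had 492 ± 43.8 CPM in control and 377 ± 23.1 CPM in LLC libraries (SD, n = 4 and 5). For miR-195a-5p they were miR-23b-3p (SD 0.138), miR-23a-3p (0.139) and miR-186-5p (0.154), with log2-fold changes between -0.05 and 0.02. For miR-16-5p they were miR-26a-5p (0.0833), miR-29c-3p (0.0971) and the endothelial miR-126a-3p (0.114), with log2-fold changes of -0.21 to -0.31. No miRNA appeared on more than 1 of these 3 lists.

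Levels of markers of other cell types moved in some of the same libraries. The summed erythroid miRNAs (miR-451a and both miR-144 arms), 3 of 3 with a negative log2-fold change, were at 215 to 325 CPM in control and 92.4 to 219.8 CPM in LLC libraries. They were lowest in L1 (92.4 CPM) and L5 (109.8 CPM), the libraries lowest in miR-16-5p and miR-15a-5p. These 2 libraries also had the lowest TMM factors, 0.876 and 0.762. The 5 leukocyte miRNAs summed to 691 to 800.3 CPM in control and 583 to 742 CPM in LLC libraries, with 4 positive and 1 negative log2-fold change, the negative one being miR-150-5p. Most of this sum was miR-150-5p, with means of 492 CPM in control and 377 CPM in LLC libraries. The sum was lowest in L1 (583 CPM) and L5 (638 CPM) and does not speak for the 4 positive miRNAs. Of these, miR-223-3p was at 18.2 to 22.8 CPM in control and 23.0 to 42.7 CPM in LLC libraries. The 2 endothelial miRNAs, both with negative values, summed to 26211 to 33929 and 24162 to 29972 CPM, with the lowest sum in L6. Most of this sum was the 5p arm (log2-fold change -0.09), so it says little about miR-126a-3p. That arm alone was at 2742 to 3094 CPM in control and 1781 to 2752 CPM in LLC libraries (log2-fold change -0.31). The 4 fibroblast and smooth muscle miRNAs summed to 49591 to 65320 and 51174 to 94950.4 CPM, with 1 positive and 3 negative. Nearly all of this sum was the positive one, miR-143-3p (log2-fold change 0.34). Alone it was at 47408 to 63495 CPM in control and 48990 to 93177 CPM in LLC libraries. The 5 tested of 6 muscle miRNAs were all negative, with sums of 21902 to 30874 and 20862 to 25266 CPM. None of the listed markers was at 0 in every library. The part of these cell types in the levels of the family was not tested.

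Of 11 relatives listed with the family, 3 had enough counts for the test and 0 were called, against the 0% of all tested miRNAs. miR-322-5p, which shares the guides' seed and is transcribed from the X chromosome with miR-503, was at 472, 495, 374 and 397 CPM in C1 to C4. It was at 314, 382, 426, 263 and 371 CPM in L1, L2, L3, L5 and L6. L1, L5 and L6 were below every control, as for miR-16-5p, and the other LLC libraries lay within the control range. Its log2-fold change was -0.31 (SE 0.14, edgeR adjusted p = 0.296). miR-103-3p and miR-107-3p, whose seed is shifted against that of the family, differ from each other at 1 of 23 bases. Their log2-fold changes were 0.09 (SE 0.11, edgeR adjusted p = 0.649) and -0.05 (SE 0.13, edgeR adjusted p = 0.818).

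The remaining relatives were at or near the floor. The other arms of the same hairpins had 10 to 22 counts for miR-15a-3p, 9 to 22 for miR-16-2-3p and 0 in every library for miR-497a-3p, and a count of 0 allows up to 3 counts. The passenger arms are the only ones that tell the miR-16 loci apart, and there were 60 to 275 counts of miR-16-2-3p per 100 of miR-16-1-3p, with overlapping groups. miR-503-5p had 1 to 8 counts. The 4 remaining miRNAs with the seed, miR-195b, miR-6342, miR-6353 and miR-6419, had 0 counts in every library. Among the miRNAs with a matched sequence, the counts of this seed therefore came from the 5 guides and miR-322-5p.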

How the data were processed

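Per the labels and the authors' methods, total RNA was extracted from the TA muscle with TRIZOL (RNA integrity number above 8), and small RNA libraries were made from 1000 ng with the TruSeq kit and sequenced as single-end 50 bp reads. The authors mapped the reads with Bowtie to the mature sequences of miRBase 21, without mismatches in a seed of 8 bases and with every best alignment kept, and deposited the counts of each mature miRNA as whole, unscaled numbers, 1 table per library. Reads equally close to 2 sequences are thus counted at both. The submitters' processing notes also name FastQC, HTSeq and DESeq2.

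The edgeR package 4.0.16 in R 4.3.3 was used for the quasi-likelihood F test, with TMM scaling and no covariate, on miRNAs that exceeded 32 counts in 1 library or more, with library sizes equal to the totals over all miRNAs and Benjamini-Hochberg adjustment over all 304. CPM are given after TMM. Log2 ratios used a prior count of 0.5, and sign-flip tests covered all 512 sign patterns. A chi-square comparison of library pairs in each group found no copy. The fits were checked on simulated data, where a pass was required only for unchanged miRNAs and for changes far larger than those of the members. The check therefore does not speak to changes as small as theirs. The members, marker lists and relatives were chosen with earlier results of these data known. The miRNAs named were the 8 members, the other arms of their hairpins, miRNAs with the same seed, miR-503, miR-103, miR-107, the 3 most similar miRNAs of miR-497a-5p, miR-195a-5p and miR-16-5p, and the first marker of a list; other markers are named by their list or where they fall under another part of the rule. Alternatives were RLE factors, library totals alone or without the 5 most abundant miRNAs, no filter, at least 10 counts in every library, DESeq2 1.42.0, a replicate block, a prior count of 5, SDs within groups and leaving out each library; leaving out L1 and L5 together was chosen after seeing the data. Sequences came from RefSeq (GRCm38.p6), which held all 8 members, and hairpin positions from the GENCODE mouse annotation of GRCm38. Plots used matplotlib 3.10.9 under Python 3.11. The mRNA libraries were not used here.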

Additional observations from a re-analysis of the deposited data

Results flagged for a closer look

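Of 34 groups of 4 or 5 libraries checked for a library far from the others, 3 held one, and chance alone gives about 1 in 20 groups. In miR-15b-3p, L5 had 6.71 CPM, while the next highest LLC library had 4.24 and the lowest 3.45, at 17 to 37 counts per library. The ratio of miR-15b-3p to miR-15b-5p was likewise apart in L5, at 25.2%, against 15.4% in the next LLC library and 11.6% in the lowest. In the summed arms of the chromosome 11 locus (miR-497a and miR-195a), L6 had 504 CPM, while the other 4 LLC libraries lay between 626 and 643 CPM. L5 was also the library with the lowest TMM factor (0.762).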

How the results depend on the processing

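Over 31 results and 408 alternative values, 392 were rated the same and 16 as moved. Differences, and steps in control or LLC libraries alone, had to stay within the spread. Counts had to stay within 1.5 times the reported count, but the number of miRNAs called had to stay at 0. SDs of log2 ratios had to stay within 25% of the reported SD. Other steps had to keep their direction and their side of an adjusted p of 0.05. The step from miR-16-5p to miR-195a-5p and the 4 from miR-15a-5p downward had adjusted p of 0.05 or less in the sign-flip test. This held with a prior count of 5 and with each library left out. In control or LLC libraries alone no step was tested, and the steps to either side of miR-497a-5p are given without a test. The log2-fold change of miR-497a-5p ran from -0.57 to -0.36. With library totals alone it was -0.57, that of miR-15b-5p was -0.25, the summed chromosome 11 locus (miR-497a and miR-195a) gave -0.30, and 4 tested miRNAs were lower without overlap. The number of miRNAs called was 22 with no filter, 8 with DESeq2 and 1 without L1 and L5, and it ran from 0 to 8 when single libraries were left out (8 without L3, 1 without L1), with 0 members among them. Leaving out single libraries moved the number of miRNAs lower without overlap from 13 to 25 (25 without L2). The summed miR-15/16 loci gave 0.025 without L1 and L5. The SD of the log2 ratio of miR-497a-5p and miR-195a-5p was 0.239 within groups, and that of miR-16-5p and miR-15a-5p ran from 0.0933 (without C2) to 0.141. The causes were not tested.

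Control and LLC mice share the replicate numbers 1 to 3 but are different animals, and same-numbered libraries had correlations of -0.27 to -0.083 in their deviations from the group means, so the numbers do not pair them. With the replicate block, 0 miRNAs were called, 15 had an unadjusted p under 0.05, and the log2-fold changes were -0.38 for miR-497a-5p, 0.16 for miR-195a-5p and -0.07 for miR-16-5p. The numbers of C4, L5 and L6 occur in 1 group only, so these log2-fold changes rest on replicates 1 to 3 of each group. Members with few counts, miR-16-1-3p above all, are limited by depth.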
